A study of Homo sapiens with 4 samples.

Results

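The genes described are TIA1, its paralog TIAL1 and 8 further genes that encode core proteins of stress granules, namely G3BP1, G3BP2, CAPRIN1, USP10, ATXN2, ATXN2L, UBAP2L and FXR1. Their mRNAs were followed on 4 single-colour Agilent arrays of KYSE180, an established cell line of esophageal squamous cell carcinoma. A pair of arrays carried RNA recovered from cytoplasmic lysates with an antibody against the TIA1 protein (TIA1 RIP, ribonucleoprotein immunoprecipitation, n = 2), and the other pair carried total RNA of the same line (n = 2). The labels give no treatment, stress or genetic change for either group. Members were chosen by symbol: every probe whose listed transcript belongs to one of the 10 genes was taken, which gave 22 of the 50599 probes. Of these, 18 were kept because both arrays of a group, either TIA1 RIP or total RNA, showed them well above background. They represent all 10 genes, among 13039 genes with a kept probe, and are set beside the 20099 kept probes of the whole array.

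Stress granules are cytoplasmic condensates of untranslated mRNAs, small ribosomal subunits and RNA-binding proteins that form when translation initiation stalls. TIA1 and TIAL1 (also called TIAR) are RNA-binding proteins with RNA recognition motifs that prefer uridine-rich RNA, and their prion-like C-terminal parts help granules to form. G3BP1 and G3BP2 are the central scaffold proteins of granule assembly. CAPRIN1 and USP10 bind G3BP and act in opposite directions, CAPRIN1 for assembly and USP10 against it. The arrays measured the mRNAs of these genes, not the proteins, and a TIA1 RIP reports which mRNAs were recovered with the TIA1 protein.

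Because TIA1 protein prefers uridine-rich RNA, the longest uridine run in the 3′ UTR of 5 of these mRNAs is shown first. The sequences were read from the MANE Select transcripts of GENCODE on GRCh37, the build named in the array files, 5′ to 3′ on the transcript strand with T for U, and capitals mark the run. The 5 are TIA1 and TIAL1, the pair of members closest to the antibody's target, and G3BP2, ATXN2L and FXR1, on whose probes the results below turn.
TIA1 (3′ UTR, chr2:70437232-70437261, minus strand): cactcaggtaTTTTTTTTTTaatcttattc
TIAL1 (3′ UTR, chr10:121334094-121334123, minus strand): tttgTTTTTTTTTTTTTTTTTTTTTgcttt
G3BP2 (3′ UTR, chr4:76568655-76568684, minus strand): gcttaaggaTTTTTTTTTTTTctgtttgaa
ATXN2L (3′ UTR, chr16:28848486-28848515, plus strand): aaggacttttacTTTTTattacataaaaat
FXR1 (3′ UTR, chr3:180694856-180694885, plus strand): ttttttccTTTTTTTTTTTTTTatttcggt

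Every one of the 10 genes had at least 1 run of 5 or more uridines in its 3′ UTR, and so did 73.6% of 19528 protein-coding genes, whatever the length of their 3′ UTR. The number of runs ranged from 1 in ATXN2L and 2 each in USP10 and ATXN2 to 35 in FXR1 and 42 in G3BP1. The 3′ UTRs of G3BP1 (8694 bases) and FXR1 (6461 bases) were long, at percentiles 98.5 and 96.4 of those genes. Those of UBAP2L (552 bases), ATXN2 (598 bases), USP10 (840 bases) and ATXN2L (967 bases) were shorter than the median of 1022 bases. Per kilobase of 3′ UTR, the runs ranged from 1.03 in ATXN2L to 7.73 in TIAL1, against a median of 2.90. G3BP1 had 4.83 per kilobase, FXR1 5.42 and UBAP2L 5.43. Uridine made up 37% of the TIA1 3′ UTR and 36.1% of the TIAL1 3′ UTR, at percentiles 93.0 and 89.9 of all genes, against 22.5% in ATXN2L at percentile 16.5. A run is a description of the sequence and not a measured binding site.

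The paralogs differ in how alike their proteins are. Translation of the same transcripts gave 386 residues for TIA1 and 375 for TIAL1, identical at 81.3% of 369 aligned positions. G3BP1 and G3BP2 were identical at 69.5% of 455 aligned positions, and ATXN2 and ATXN2L at 47.5% of 985.

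On each array the processed signal was put on a log2 scale and the array's 75th percentile was subtracted, so that a level of 0 equals that percentile. The RIP arrays resembled each other (r = 0.94 across the kept probes, which are not independent replicates) more than the total RNA arrays did (r = 0.75). Total RNA replicate 2 was dim, with a 75th percentile of 69.9 intensity units against 714 to 1514 on the other arrays, and 32.0% of its spots were well above background against 45.7% to 48.3%. The SD of the difference between the total RNA arrays was 2.01 log2 units over all kept probes, against 0.87 between the RIP arrays. Each member is therefore given against both total RNA arrays together and against each alone. Of the epithelial markers looked at, all 8 (KRT5, KRT14, KRT17, KRT6A, KRT18, TP63, SFN and DSG3) had kept probes. Of 9 markers of blood, vessel, stromal and liver cells, CDH5, COL1A1 and PTPRC had a kept probe and the other 6 had none.

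No member probe differed between TIA1 RIP and total RNA past an adjusted p of 0.05 (limma, Benjamini-Hochberg over 20099 probes). None of the other kept probes did either, so the share called was 0% in each direction, and without the detection filter 54 of 50592 probes were called, all lower and none of them a member. At an unadjusted p under 0.05 there were 2 of the 18 member probes and 1166 of all kept probes, 231 higher and 935 lower in TIA1 RIP. The adjusted p of the members ran from 0.745 to 0.988, and the SE of their log2 ratios from 0.78 to 1.36. Nothing in the labels says whether same-group arrays came from separate cultures, so these p-values measure only the spread between these arrays.

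**Figure D1:**
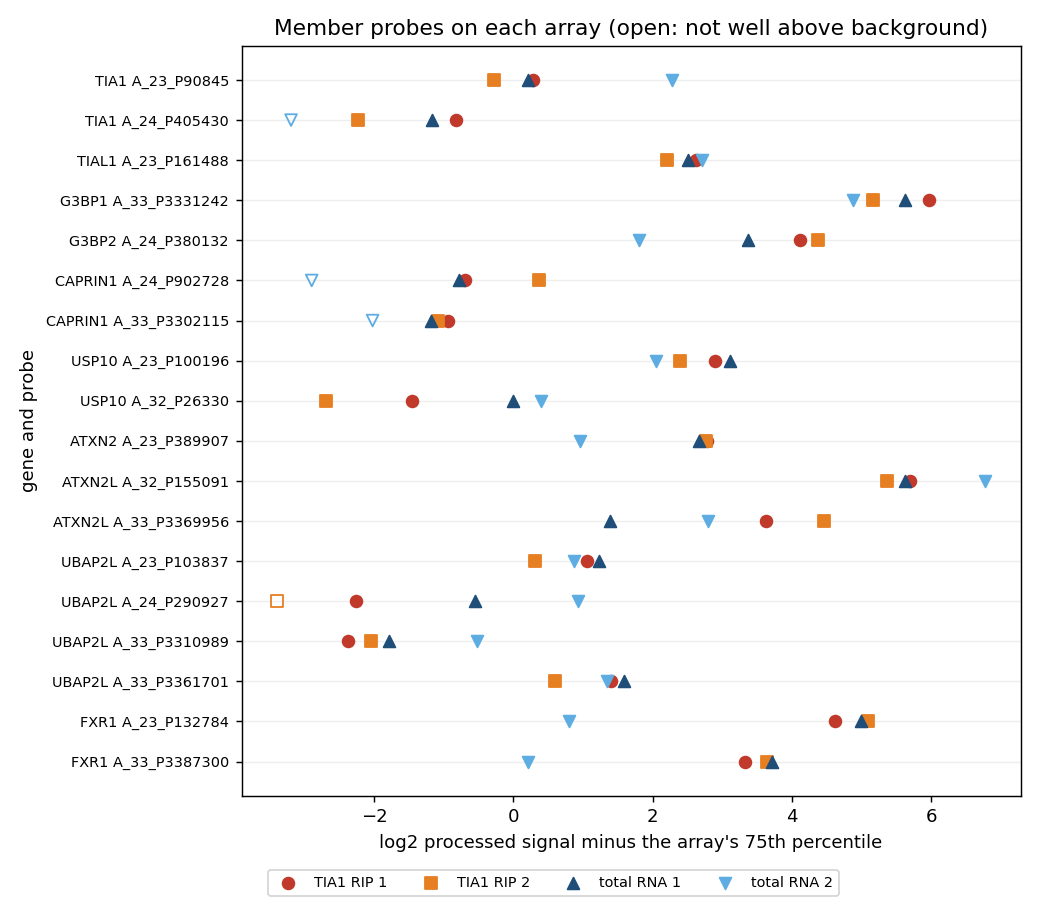
Level of each kept member probe on the 4 arrays, as log2 processed signal minus the 75th percentile of the array. Each row is 1 probe, to be read within the row only, and open symbols mark arrays on which the probe was not well above background. For FXR1 and ATXN2 the RIP arrays sit beside total RNA replicate 1 and away from total RNA replicate 2.

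For TIA1 itself, 2 probes listed under the same transcript were kept. Probe A_23_P90845 read 1836 and 1052 intensity units in TIA1 RIP, and 822 and 340 in total RNA. Its scaled log2 levels were 0.28 and -0.27 in TIA1 RIP and 0.20 and 2.28 in total RNA. The RIP arrays bracketed total RNA replicate 1 and lay below replicate 2. The log2 ratio of TIA1 RIP over total RNA was -1.24 with an SE of 0.96 (adjusted p = 0.772, limma). Taking the total RNA arrays singly, the ratio was -0.20 for replicate 1 and -2.28 for replicate 2.

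Probe A_24_P405430 of TIA1 stood at -0.83 and -2.23 in TIA1 RIP and at -1.17 and -3.19 in total RNA. The groups overlapped, and on total RNA replicate 2 the probe was not well above background (7.6 intensity units). Its log2 ratio was 0.65 with an SE of 1.01 (adjusted p = 0.889, limma), made of -0.36 against total RNA replicate 1 and 1.66 against replicate 2. Between the total RNA arrays the pair of TIA1 probes therefore moved by 2.08 and by -2.02 log2 units, while against replicate 1 alone their ratios differed by 0.16. The probes nearest to A_23_P90845 over the 4 arrays, by Euclidean distance of scaled levels, were those of DELE1 (0.13), LIMS2 (0.42) and HMHB1 (0.45).

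TIAL1 had the steadiest probe of the 18 between the total RNA arrays. Probe A_23_P161488 stood at 2.63 and 2.21 in TIA1 RIP and at 2.51 and 2.70 in total RNA. All 4 values lay within a span of 0.49 log2 units, and the groups overlapped. The log2 ratio was -0.19 with an SE of 0.78 (adjusted p = 0.962, limma), and its sign turned under normexp background correction (0.21) and median scaling (0.046). With the total RNA arrays taken singly, the ratio was -0.09 for replicate 1 and -0.28 for replicate 2. The nearest probes were those of GNB1 (0.17), SLC7A6OS (0.17) and EWSR1 (0.20). The other TIAL1 probe, listed under an Ensembl transcript, read 33.3 and 38.5 intensity units in TIA1 RIP and 14.9 and 8.0 in total RNA, not well above background on any array.

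The kept probe of G3BP1 stood at 5.97 and 5.16 in TIA1 RIP and at 5.62 and 4.88 in total RNA, and the groups overlapped. The log2 ratio was 0.31 with an SE of 0.83 (adjusted p = 0.939, limma). It was made of -0.06 against total RNA replicate 1 and 0.68 against replicate 2. A further G3BP1 probe was well above background on RIP replicate 1 (139 intensity units) and total RNA replicate 1 (131), and not on the other arrays, and was not kept.

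The single probe of G3BP2 stood at 4.12 and 4.37 in TIA1 RIP and at 3.38 and 1.81 in total RNA. Both RIP arrays lay above both total RNA arrays. The log2 ratio was 1.65 with an SE of 0.88 (adjusted p = 0.745, limma), and it kept its sign against each total RNA array, at 0.87 against replicate 1 and 2.43 against replicate 2. The difference between the G3BP paralogs was not tested.

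CAPRIN1, the G3BP partner that favours granule assembly, had 2 kept probes, neither well above background on total RNA replicate 2 (9.4 and 17.2 intensity units). Probe A_24_P902728 stood at -0.69 and 0.37 in TIA1 RIP and at -0.78 and -2.90 in total RNA. Probe A_33_P3302115 stood at -0.95 and -1.09 in TIA1 RIP and at -1.18 and -2.02 in total RNA. For both, the RIP arrays lay above the total RNA arrays, by as little as 0.09 log2 units over replicate 1. The log2 ratios were 1.68 with an SE of 1.00 (adjusted p = 0.747, limma) and 0.59 with an SE of 0.81 (adjusted p = 0.871, limma). They were 0.62 and 0.17 against total RNA replicate 1, and 2.74 and 1.01 against replicate 2.

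USP10, a deubiquitinase that competes with CAPRIN1 for G3BP, had 2 kept probes listed under the same transcript, and they disagreed. Probe A_23_P100196, printed on 10 spots, stood at 2.90 and 2.39 in TIA1 RIP and at 3.11 and 2.04 in total RNA. The groups overlapped, with a log2 ratio of 0.07 and an SE of 0.84 (adjusted p = 0.988, limma). This ratio was -0.47 against total RNA replicate 1 and 0.60 against replicate 2. The SD over the 10 spots of the probe was 0.03 to 0.06 log2 units on each array, a technical spread within the array. Probe A_32_P26330 stood at -1.46 and -2.69 in TIA1 RIP and at -0.01 and 0.39 in total RNA. Both RIP arrays lay below both total RNA arrays, with a log2 ratio of -2.27 and an SE of 0.85 (adjusted p = 0.745, limma). That ratio was -2.07 against total RNA replicate 1 and -2.46 against replicate 2.

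ATXN2 and ATXN2L encode related RNA-binding proteins of granules that interact with poly(A)-binding protein. The kept ATXN2 probe stood at 2.78 and 2.76 in TIA1 RIP and at 2.67 and 0.96 in total RNA. The RIP arrays lay 0.09 to 0.11 above total RNA replicate 1 and 1.80 to 1.81 above replicate 2. The log2 ratio was 0.95 with an SE of 0.90 (adjusted p = 0.808, limma), made of 0.10 against replicate 1 and 1.81 against replicate 2. The other ATXN2 probe read 7.4 to 60.7 intensity units and was not well above background on any array.

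The kept ATXN2L probes are listed under different transcripts of the gene and pointed in opposite directions on the group means. Probe A_33_P3369956 stood at 3.63 and 4.46 in TIA1 RIP and at 1.38 and 2.80 in total RNA, with both RIP arrays above both total RNA arrays. Its log2 ratio was 1.96 with an SE of 0.89 (adjusted p = 0.745, limma), 2.67 against total RNA replicate 1 and 1.25 against replicate 2. Probe A_32_P155091 stood at 5.69 and 5.36 in TIA1 RIP and at 5.62 and 6.77 in total RNA, and the groups overlapped. Its log2 ratio was -0.67 with an SE of 0.84 (adjusted p = 0.858, limma) and 0.0033 after quantile normalization. It was made of -0.10 against total RNA replicate 1 and -1.25 against replicate 2. A further ATXN2L probe, listed under the same transcript as A_33_P3369956, read 169 and 108 intensity units in TIA1 RIP and 73.5 and 14.0 in total RNA, and was not kept because it was well above background on only 1 array of each group.

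UBAP2L, an RNA-binding protein needed for granule assembly, had 4 kept probes, all with a log2 ratio below 0. The median ratio was itself below 0, at -0.11 over all kept probes and -0.41 over probes detected on all 4 arrays. The share of all probes below 0 was not counted. The pair listed under one transcript gave -0.37 (SE 0.80) for A_23_P103837 and -0.47 (SE 0.81) for A_33_P3361701. Both overlapped between groups. They were -0.54 and -0.59 against total RNA replicate 1, and -0.19 and -0.34 against replicate 2. The pair listed under another transcript gave -1.05 (SE 0.85) for A_33_P3310989 and -3.01 (SE 0.92) for A_24_P290927, both with the RIP arrays below the total RNA arrays. These were -0.43 and -2.27 against total RNA replicate 1, and -1.68 and -3.75 against replicate 2. Probe A_24_P290927 stood at -2.25 and -3.39 in TIA1 RIP, not well above background on RIP replicate 2, and at -0.55 and 0.93 in total RNA. Its adjusted p was 0.745 (limma). Blocking on the replicate number brought it to 0.034, where 3.22% of all kept probes were called, and no other member passed.

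FXR1, a paralog of the fragile X protein FMRP found in granules, differed most of all members between the total RNA arrays. Probe A_23_P132784 had signals of 37092 and 43566 intensity units in TIA1 RIP, 22830 on total RNA replicate 1 and 122 on replicate 2. On the scaled log2 axis these were 4.61 and 5.10 in TIA1 RIP and 5.0 and 0.80 in total RNA. Probe A_33_P3387300 gave 3.33 and 3.65 in TIA1 RIP and 3.71 and 0.21 in total RNA. From total RNA replicate 1 the RIP arrays thus differed by -0.38 to 0.10 log2 units over both probes, and they lay 3.12 to 4.30 above replicate 2. The log2 ratios were 1.96 with an SE of 1.36 (adjusted p = 0.761, limma) and 1.53 with an SE of 1.21 (adjusted p = 0.776, limma). Against total RNA replicate 1 alone they were -0.14 and -0.22, and against replicate 2 they were 4.06 and 3.28.

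**Figure D2:**
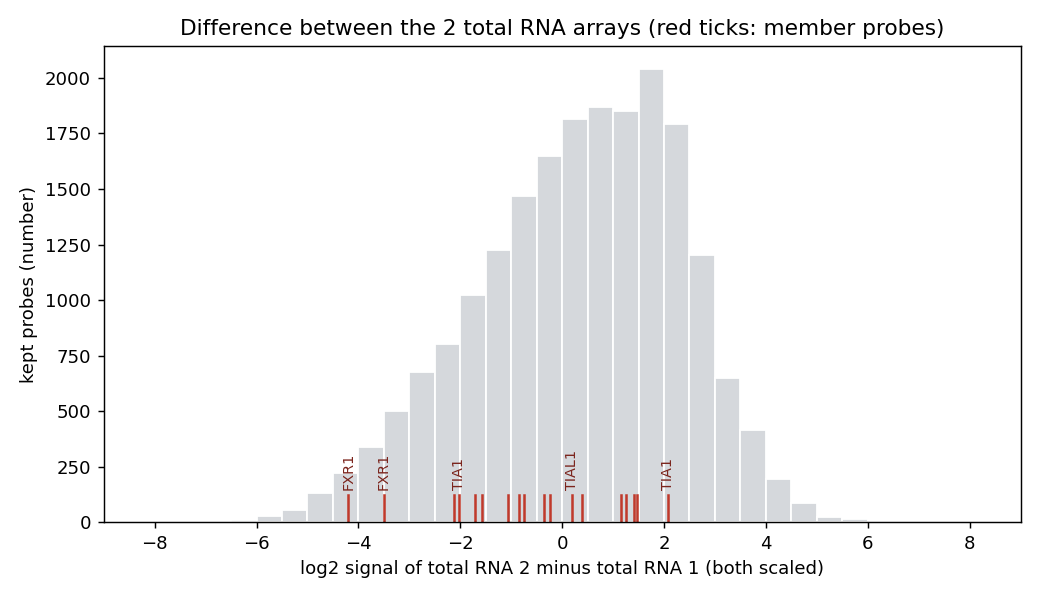
Number of kept probes by the scaled log2 signal of total RNA replicate 2 minus that of replicate 1, in bins of 0.5, with 1 probe beyond the axis. Red ticks are the 18 member probes, with FXR1, TIA1 and TIAL1 named. The FXR1 probes lie at -4.20 and -3.50, toward the low end of all probes.

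The difference between the total RNA arrays placed the FXR1 probes at percentiles 1.73 and 3.92 of all kept probes. Of the 18 member probes, 11 were lower on total RNA replicate 2 than on replicate 1 after scaling. Over all kept probes the share lower on replicate 2 was under 43.8%, the percentile of the TIAL1 probe, whose difference was 0.19. Against replicate 1 alone, 15 of the 18 lay within 1 log2 unit of total RNA, and the 3 others were ATXN2L A_33_P3369956 above and USP10 A_32_P26330 and UBAP2L A_24_P290927 below. Against replicate 2 alone, 5 lay within 1 log2 unit. The sign of the ratio differed between the total RNA arrays for 5 probes. The share of all kept probes was not counted for the band of 1 log2 unit or for the sign, so these counts describe the members only.

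Among the 14 member probes detected on all 4 arrays, the RIP arrays lay above both total RNA arrays for 3 (G3BP2, ATXN2 and ATXN2L A_33_P3369956), beside 13.7% of all probes so detected. They lay below both for 2 (USP10 A_32_P26330 and UBAP2L A_33_P3310989), beside 29.5%. The CAPRIN1 probes and UBAP2L A_24_P290927 also did not overlap between groups, but each passed the filter through the group in which it stood higher. The median log2 ratio of the 18 was 0.19, against -0.11 over all kept probes. Over probes detected on all 4 arrays the medians were -0.06 and -0.41. Against total RNA replicate 1 the medians of the kept probes were -0.17 and 0.07, and against replicate 2 they were 0.64 and -0.47. The members thus stood on opposite sides of the whole array depending on which total RNA array was used.

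The study used GAPDH, which encodes a glycolytic enzyme, as its reference for enrichment in the immunoprecipitates, and members were put on that scale too. The GAPDH probe stood at 6.49 and 6.69 in TIA1 RIP and at 7.67 and 9.63 in total RNA. Its log2 ratio was -2.06 with an SE of 0.94 (adjusted p = 0.745, limma), -1.08 against total RNA replicate 1 and -3.04 against replicate 2. ACTB, which encodes beta-actin, gave -1.84 with an SE of 0.93 (adjusted p = 0.745, limma). Both references lay below total RNA, so most of the array lay above them.

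On the group means, 14 of the 18 member probes passed 2.5-fold over GAPDH, which is 77.8%, beside 70.7% of all kept probes. Of the 14 detected on all 4 arrays, 11 passed, beside 62.3% of all probes so detected. After quantile normalization, an alternative added after the data were seen, the log2 ratio of GAPDH was -0.62, and 9 members passed, beside 30.9% of all kept probes. The 4 that did not pass on the 75th percentile scale were TIA1 A_23_P90845 (1.76-fold), USP10 A_32_P26330 (0.87-fold) and UBAP2L A_24_P290927 (0.52-fold) and A_33_P3310989 (2.01-fold). Against total RNA replicate 1 alone, 3 passed, 16.7% beside 42.6% of all kept probes. They were G3BP2 (3.86-fold), CAPRIN1 A_24_P902728 (3.25-fold) and ATXN2L A_33_P3369956 (13.4-fold). Against replicate 2 alone, 15 passed, 83.3% beside 75.7%. No member lay more than 2.5-fold below GAPDH on the group means, where 1.87% of all kept probes did.

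G3BP2 and ATXN2L A_33_P3369956 passed 2.5-fold over GAPDH in all 4 pairs of a RIP and a total RNA array, 11.1% of the members beside 26.4% of all kept probes. For G3BP2 the 4 values were 3.79-fold and 3.92-fold against total RNA replicate 1 and 43.8-fold and 45.2-fold against replicate 2. For ATXN2L A_33_P3369956 they were 10.8-fold and 16.6-fold against replicate 1 and 15.7-fold and 24.3-fold against replicate 2. On the GAPDH scale the ATXN2L probe thus gave much the same enrichment with either total RNA array, and G3BP2 differed more than 10-fold. Before division by GAPDH, the ATXN2L log2 ratio was 2.67 against replicate 1 and 1.25 against replicate 2. That of G3BP2 was 0.87 and 2.43. TIAL1 was enriched 1.98-fold over GAPDH against replicate 1 and 6.77-fold against replicate 2. FXR1 A_23_P132784 was enriched 1.91-fold against replicate 1 and 137-fold against replicate 2.

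**Figure D3:**
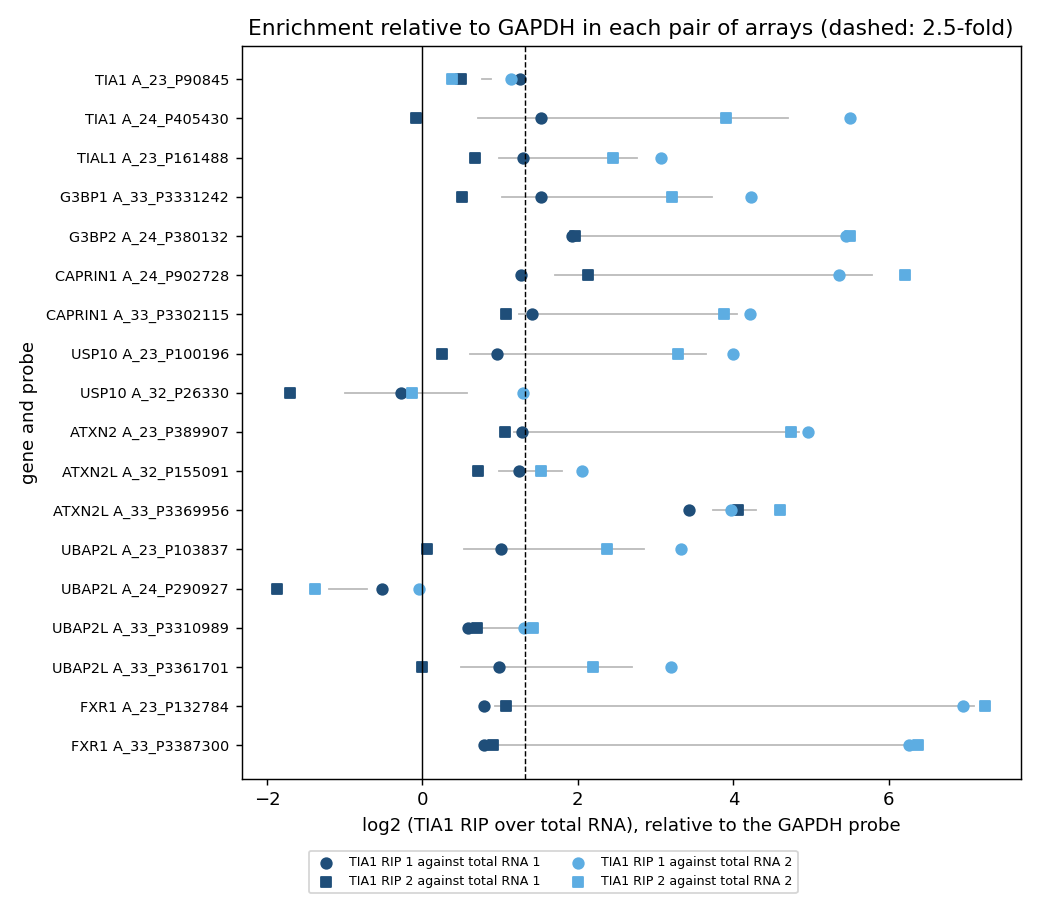
Log2 ratio of TIA1 RIP over total RNA minus that of the GAPDH probe, for each kept member probe and each pair of arrays. Grey lines join the mean against total RNA replicate 1 to the mean against replicate 2, the solid line is no enrichment over GAPDH and the dashed line is 2.5-fold. Only G3BP2 and ATXN2L A_33_P3369956 have all 4 points to the right of the dashed line.

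Probes of the same member often disagreed. Of the 6 members with several kept probes, 3 (TIA1, USP10 and ATXN2L) had log2 ratios of opposite sign on the group means, against 31.8% of the 3007 symbols with several kept probes. With total RNA replicate 1 alone, both probes lay below 0 for TIA1 (-0.20 and -0.36) and for USP10 (-0.47 and -2.07). Those of ATXN2L stayed opposite, at 2.67 and -0.10. The share of symbols with opposite signs was not counted for replicate 1 alone. The gap between the highest and the lowest probe ranged from 0.43 for FXR1 to 2.65 for UBAP2L, with a median of 2.11, against a median of 0.75 over the 3007 symbols. The gap grows with the number of probes, which differs between genes. Against total RNA replicate 1 alone, the gap was 0.16 for TIA1 and 0.08 for FXR1 and was 2.76 for ATXN2L and 1.60 for USP10. The sequences of the probes were not used here, so their place within the transcripts is not given.

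Across the other genes of the pathway, no probe passed the adjusted threshold in limma. At an unadjusted p under 0.05 there was 1 among the other RNA-binding stress granule proteins, 1 among the processing body genes and none in the remaining lists. The 55 kept probes of 35 other RNA-binding stress granule proteins had a median log2 ratio of 0.30. On the means 83.6% passed 2.5-fold over GAPDH, beside 70.7% of all kept probes, and 25.5% passed with total RNA replicate 1 alone, beside 42.6%. On the group means their highest probe belonged to TARDBP (2.22, SE 1.45), which encodes TDP-43, and their lowest to CIRBP (-3.91, SE 1.17), a cold-inducible RNA-binding protein. The place of TARDBP rests on total RNA replicate 2, where it was not well above background, and against replicate 1 it was -0.07. CIRBP was not well above background on RIP replicate 1.

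The 29 kept probes of 17 translation initiation factors and helicases had a median log2 ratio of 0.19. EIF4E, the cap-binding protein, was highest on the group means at 2.48 (SE 1.27). That value rests on total RNA replicate 2, where the probe was not well above background, and against replicate 1 it was 0.61. EIF4G1, the scaffold of the cap-binding complex, was lowest at -1.69 (SE 0.79), and was -1.69 against each total RNA array. The 10 kept probes of the clearance and signalling genes had a median of 0.15, from ZFAND1 at 2.32 (SE 1.12), a factor of granule clearance, to the deacetylase HDAC6 at -1.89 (SE 1.26). ZFAND1 too was not well above background on total RNA replicate 2, and against replicate 1 it was 0.81. The HDAC6 value also rests on total RNA replicate 2. Its ratio was -0.15 against replicate 1 and -3.63 against replicate 2, and its groups overlapped.

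The 8 kept probes of the genes for eIF2alpha and for its kinases and phosphatase subunits, which set the phosphorylation that stalls initiation, had a median log2 ratio of 1.04, beside -0.11 over all kept probes. All 8 passed 2.5-fold over GAPDH on the means, as 70.7% of all kept probes did, and 3 passed in all 4 pairs, beside 26.4%. Against total RNA replicate 1 their median was 0.01, and against replicate 2 it was 1.93. EIF2AK1, the heme-regulated kinase, was highest and stood at 4.18 and 4.57 in TIA1 RIP and at 3.03 and 2.73 in total RNA. Its RIP arrays lay above both total RNA arrays, as did those of 13.7% of all probes detected on all 4 arrays. The EIF2AK1 ratio was 1.35 against replicate 1 and 1.65 against replicate 2. On the group means its SE was 0.79 (adjusted p = 0.745, limma). EIF2AK1 was named for the highest ratio of its list, so the lack of overlap is not independent of that choice. EIF2AK2, the double-stranded RNA-dependent kinase PKR, was lowest at 0.67 (SE 1.00), also without a signal well above background on total RNA replicate 2. Its sign turned between the total RNA arrays, at -0.46 against replicate 1 and 1.80 against replicate 2.

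The 11 kept probes of processing body genes, which encode the decapping and decay machinery, had a median log2 ratio of -0.15, from LSM1 at 1.26 (SE 0.91) to EDC4 at -2.27 (SE 0.89). Both are decapping factors. None of the 11 passed 2.5-fold over GAPDH in all 4 pairs, where 26.4% of all kept probes did. Against total RNA replicate 1, the medians of the 5 lists ran from -0.33 to 0.08, and that of all kept probes was 0.07.

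**Figure D4:**
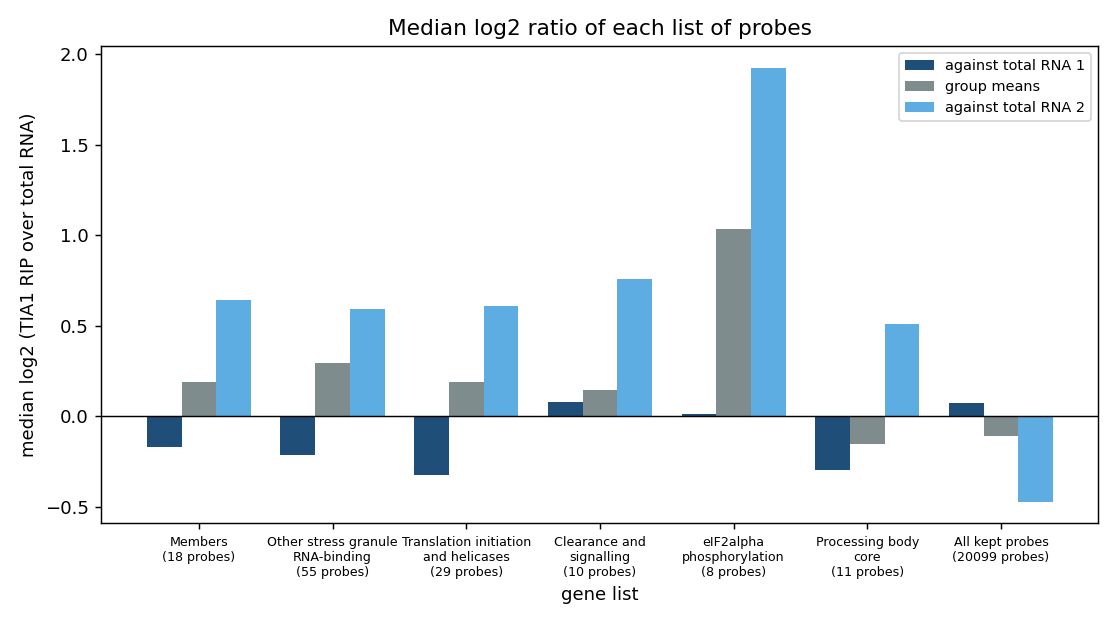
Median log2 ratio of TIA1 RIP over total RNA for the probes of each gene list, against total RNA replicate 1, against the mean of both total RNA arrays and against replicate 2. Numbers of kept probes are given under each list, and bars start at 0. Each list stands above all kept probes against replicate 2, and the members lie at -0.17 against replicate 1.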

How the data were processed

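RNA from anti-TIA1 immunoprecipitates and total RNA of KYSE180 cells had been labelled from 0.2 µg and hybridised to 4 arrays. The authors deposited Agilent Feature Extraction 10.7.1.1 output on GRCh37 per the file headers, a linear intensity per spot after background subtraction, with other columns of spot flags. They analysed the arrays in GeneSpring. The deposited files are not normalized between arrays. Array number limits the precision.

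Uneven or deviant spots, as flagged, were dropped, the log2 processed signal was scaled by subtracting the 75th percentile, spots of a probe were averaged, and a probe counted as detected with at least 0.5 of its spots well above background. A probe was kept if both TIA1 RIP or both total RNA arrays detected it. Transcript names were matched to symbols through RefSeq (a later assembly, names only) and GENCODE (34510 of 50599 probes). limma 3.58.1 in R 4.3.3 tested TIA1 RIP against total RNA over all kept probes (Benjamini-Hochberg, 0.05), with fits tested on simulated data. Proteins were aligned with Biopython 1.88. Python 3.11.15, pandas 2.3.3 and matplotlib 3.10.9 made tables and figures.

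All kept probes of the 10 members, GAPDH, ACTB, the highest and the lowest probe of each list, and the 3 probes nearest to TIA1 and TIAL1 are named. Members and lists were chosen with earlier results of these data known. IgG immunoprecipitates and sequencing of RIP RNA were not analysed here. All arrays shared 1 slide and 1 scan date. Alternatives covered background correction, scaling, detection filter, averaging to genes, reference gene, fold, replicate block and each array left out.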

Additional observations from a re-analysis of the deposited data

How the results depend on the processing

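No member was called without a block, under the other scalings and filters, with probes averaged to genes, or without either RIP array or total RNA replicate 2. With the replicate block 1 of 18 members was called, beside 3.22% of all kept probes, and without total RNA replicate 1 there were 8, so leave-one-out counts ran from 0 to 8. Without that array 34.5% of all kept probes were called, and the lone total RNA array was assumed to vary like the RIP arrays. The 8 were both FXR1 probes, G3BP2, ATXN2 and CAPRIN1 A_24_P902728 higher, and TIA1 A_23_P90845, USP10 A_32_P26330 and UBAP2L A_24_P290927 lower. The count of members past 2.5-fold over GAPDH was 14, and ranged from 3 (without total RNA replicate 2) to 15 with an array left out. It was 9 after quantile normalization, chosen after seeing the data, beside 30.9% of all kept probes. It was 5 with the median of all kept probes as reference, and 8 of 10 genes with probes averaged. For these last settings the share over the whole array was not counted, so they cannot be set against it. The member median of 0.19 ranged from -0.17 to 0.64 with an array left out, and was -0.06 with only probes detected on all 4 arrays, -0.28 without a detection filter and 0.11 to 0.48 under the other settings.

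Among 104 probe values under the settings that kept all arrays, 99 held their direction and side of the threshold, 1 passed it (UBAP2L A_24_P290927 with the block) and 4 turned: TIA1 A_24_P405430 to -0.17 and TIAL1 to 0.21 with normexp, TIAL1 to 0.046 with median scaling, and ATXN2L A_32_P155091 to 0.0033 with quantile normalization. With an array left out, 11 of 18 probes kept their sign. The ranges of the 7 others were -0.36 to 1.66 for TIA1 A_24_P405430, -0.40 to 0.024 for TIAL1, -0.10 to 0.72 for G3BP1, -0.47 to 0.60 for USP10 A_23_P100196, -0.74 to 0.0038 for UBAP2L A_23_P103837, -0.14 to 4.06 for FXR1 A_23_P132784 and -0.22 to 3.28 for FXR1 A_33_P3387300. The causes were not tested. Against a median of -0.11 over all kept probes, median scaling gave 0.12, quantile normalization 0.04 and normexp -0.22.

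Same-numbered arrays deviated together (r = 0.44 over kept probes), but with 2 pairs that share only a number the pairing is not established. The block raised the calls over all kept probes from 0 to 94 higher and 553 lower. A block for slide or scan was not run, as all arrays shared both. Low signal limits the probes not well above background on total RNA replicate 2, namely TIA1 A_24_P405430 and both of CAPRIN1. Without total RNA replicate 1, CAPRIN1 A_24_P902728 was thus set only against such a signal. UBAP2L A_24_P290927 was kept through the total RNA arrays alone, as it was not well above background on RIP replicate 2.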
